A study of Mus musculus with 6 samples.

Results

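The insulin-like growth factor (IGF) binding proteins Igfbp1 to Igfbp7, the ligand gene Igf2 and the receptor genes Igf1r and Igf2r were examined in mouse liver. Their values were taken from the probe sets, sets of short oligonucleotides that together read a transcript, whose only gene symbol is one of these 10 names. All 10 genes were measured, with 25 probe sets, among 18193 genes on the array. Liver RNA came from 3 wild-type (HLJ1+/+, here Dnajb4+/+) and 3 knockout (HLJ1-/-, here Dnajb4-/-) mice, labelled as male C57BL/6 animals 6 to 8 weeks old and as biological replicates, on an Affymetrix Mouse Genome 430 2.0 array each. Mice of both genotypes were untreated, and the knockout was made by gene targeting in embryonic stem cells without restriction to a cell type being stated. Dnajb4 encodes HLJ1, a heat shock protein of the DnaJ family. The comparison asked how the loss of HLJ1 alters hepatic gene expression.

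The liver is the main source of circulating IGF-1, and most IGF in blood travels bound to IGF binding proteins, which prolong its half-life and set how much reaches the receptors. IGFBP-3 carries IGF in a large complex with the acid-labile subunit, encoded by Igfals, while IGFBP-1, IGFBP-2 and IGFBP-4 form small complexes. IGF-1 and IGF-2 signal through the IGF-1 receptor, whereas the IGF-2 receptor, which is also a mannose 6-phosphate receptor, takes up IGF-2 for breakdown. Adult mouse hepatocytes express little Igf1r, and Igf2 is active in fetal liver and shut down after birth.

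Values are normalized intensities on a linear scale, and differences are on the log2 scale, Dnajb4-/- minus Dnajb4+/+, with two-sided p-values from limma after Benjamini-Hochberg correction across every gene or probe set and calls at an adjusted p under 0.05. The array medians were 31.8 to 32.5, and the lowest value on any array was 3.90. The brightest of 3 Dnajb4 probe sets read 588, 566 and 612 in Dnajb4+/+ and 467, 480 and 453 in Dnajb4-/- livers (log2 difference -0.34, adjusted p = 0.00768), and the other 2 did not pass. As the mean of its 3 probe sets, at 137 ± 5.51 and 124 ± 6.85 (SD, n = 3), Dnajb4 was not called (-0.14, adjusted p = 0.145). Much of the Dnajb4 signal thus remained in the arrays labelled knockout, and whether the probe sets lie inside the deleted part is not given in the sources used here. The values do not bear out the knockout label, and Dnajb4+/+ and Dnajb4-/- stand throughout, also in every direction given, for the arrays labelled so. Xist, the RNA that silences an X chromosome in females, read 364 to 402 in Dnajb4+/+ and 14.3 to 17.1 in Dnajb4-/- livers. This goes against the male label of the Dnajb4+/+ mice. The Y-linked Eif2s3y read 62.6 to 72.3 and 77.4 to 81.3, so that Dnajb4+/+ arrays held 78.7 to 90.9% of its mean Dnajb4-/- signal. Each Dnajb4+/+ array thus held both signals, and these values do not settle the sex behind it. The Y-linked Kdm5d and Uty were below the array medians in both genotypes and bear on neither label. Of 17 female-biased liver genes, 16 were lower in Dnajb4-/- livers, beside 9.57% of all genes. Of 13 male-biased ones, 10 were higher, beside 5.09% of all genes. The ratio of 3' to 5' signal of Gapdh, a sign of RNA integrity, was 1.16 to 1.19 in Dnajb4+/+ and 1.43 to 1.48 in Dnajb4-/- livers. All 3 Dnajb4+/+ arrays show the Xist signal and all 3 Dnajb4-/- arrays the higher ratio, so no result could be given without them. Genotype cannot be told apart from sex or RNA quality in any value that follows.

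The stretches of 250 bases before the RefSeq start sites of the 4 genes whose call held with each array left out are shown first, as 3 of them fell and 1 rose in Dnajb4-/- livers. RefSeq start sites of GRCm38.p6 were found for all 10 genes, 14 in number. Capitals mark matches, on either strand, to 8 motifs, namely the FOXO element CAAAACA of insulin-repressed genes, the TATA box TATAAA, the CCAAT box, the GC box GGGCGG, the cAMP response element TGACGTCA, the HNF1 element, the STAT element TTCNNNGAA and the hypoxia response core ACGTG. The stretches lie at chr11:7197537-7197786 on the plus strand (Igfbp1), chr1:72824230-72824479 on the plus strand (Igfbp2, the upstream of 2 start sites), chr11:99040994-99041243 on the plus strand (Igfbp4) and chr11:7213924-7214173 on the minus strand (Igfbp3).
Igfbp1: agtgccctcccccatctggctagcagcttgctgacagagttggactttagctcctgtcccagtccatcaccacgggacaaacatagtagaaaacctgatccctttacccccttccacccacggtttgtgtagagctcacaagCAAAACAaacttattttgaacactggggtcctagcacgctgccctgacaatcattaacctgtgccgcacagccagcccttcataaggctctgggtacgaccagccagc
Igfbp2: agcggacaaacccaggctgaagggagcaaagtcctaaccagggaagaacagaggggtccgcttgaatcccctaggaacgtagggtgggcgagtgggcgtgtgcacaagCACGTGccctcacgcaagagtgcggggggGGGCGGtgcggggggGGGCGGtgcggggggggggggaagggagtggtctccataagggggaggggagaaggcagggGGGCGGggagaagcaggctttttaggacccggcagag
Igfbp4: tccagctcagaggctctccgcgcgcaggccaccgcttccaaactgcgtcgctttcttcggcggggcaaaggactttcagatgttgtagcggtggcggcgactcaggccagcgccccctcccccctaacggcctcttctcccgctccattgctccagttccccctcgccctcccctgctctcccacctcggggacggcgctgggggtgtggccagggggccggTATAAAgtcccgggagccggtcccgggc
Igfbp3: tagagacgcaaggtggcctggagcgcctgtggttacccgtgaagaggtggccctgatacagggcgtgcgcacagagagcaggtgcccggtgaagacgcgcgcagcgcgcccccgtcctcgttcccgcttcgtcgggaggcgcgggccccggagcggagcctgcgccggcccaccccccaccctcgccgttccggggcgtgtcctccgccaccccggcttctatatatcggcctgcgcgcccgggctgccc
The Igfbp1 stretch held CAAAACA from -108 to -102 relative to the start site, a motif found in 5.56% of 32851 stretches of the same length. The Igfbp2 stretch held 3 GC boxes, where 32.7% of all stretches held at least 1. It also held ACGTG on both strands in an overlapping CACGTG, a core found in 16.6%. The Igfbp4 stretch held TATAAA from -28 to -23 (12.4% of all stretches), and no searched letters were found in the Igfbp3 stretch. These matches are descriptions of the letters and show no binding.

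Of the 10 genes, 4 were lower in Dnajb4-/- livers (Igfbp1, Igfbp2, Igfbp4 and Igfbp5), 1 was higher (Igfbp3) and 5 did not pass the test. Over all genes tested, 14.7% passed, 5.09% as higher and 9.57% as lower. Brighter genes passed more often. With dim genes left out, among them Igf2 and Igf1r, 35.7% of the 9096 genes kept passed. In that fit 4 of the 10 genes were again lower and 1 higher. When arrays were centred by the mean over brighter probe sets, the share of higher genes among all calls moved from 34.7% to 50.5%, while among the 10 genes 4 were again lower and 1 higher. The genotypes did not overlap for 7 of the 10 genes, beside 35.5% of all genes. The median log2 difference of the 10 genes was -0.062, beside 0.0075 over all genes, and their median absolute difference was 0.19, beside 0.084.

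**Figure D1:**
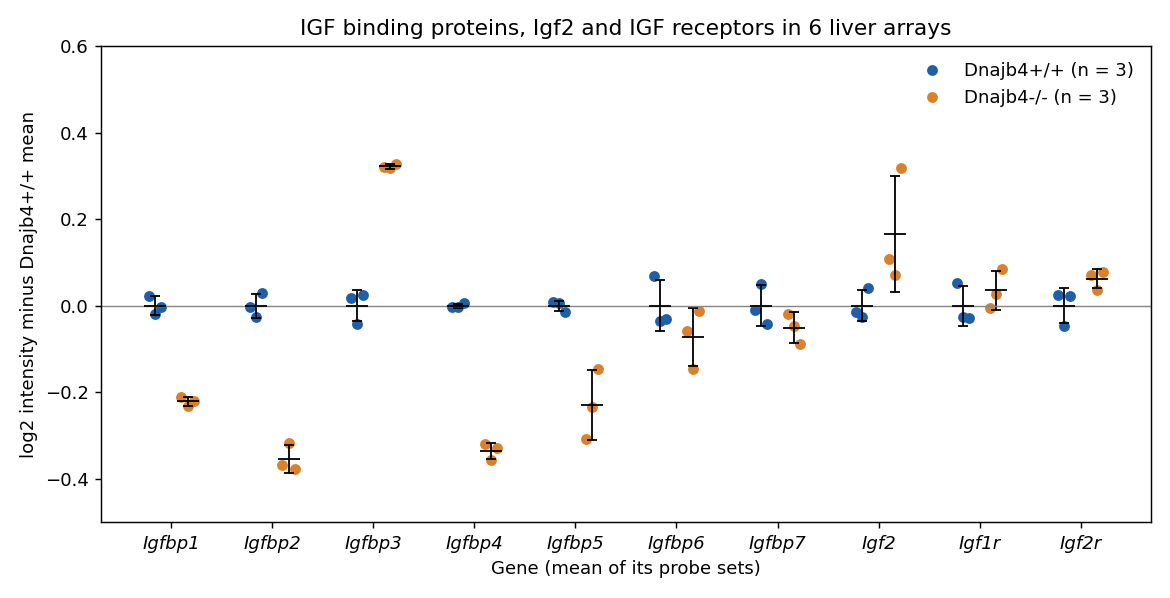
Log2 intensity of each of the 10 genes (x axis) in each of the 6 arrays, relative to the Dnajb4+/+ mean (y axis), with points for arrays and bars for mean and SD (n = 3 per genotype). The Dnajb4-/- arrays of Igfbp1, Igfbp2, Igfbp4 and Igfbp5 all lie below the Dnajb4+/+ arrays and those of Igfbp3 all above, whereas those of Igfbp6, Igfbp7 and Igf1r overlap.

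Igfbp2, the binding protein whose level in blood follows nutrition and which also carries an integrin-binding site, was lower in all Dnajb4-/- arrays. Its single probe set read 6133, 6031 and 6263 in Dnajb4+/+ and 4760, 4931 and 4727 in Dnajb4-/- livers. The groups lay far apart relative to their spread. The log2 difference was -0.35 ± 0.039 (SE; adjusted p = 0.00161), so that Dnajb4-/- livers held 78.2% of the Dnajb4+/+ signal. The call was made under all 11 processing alternatives and with each of the 6 arrays left out.

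Igfbp4, which binds IGF tightly and is cleaved by the protease PAPP-A, has 6 probe sets, all of them higher in every Dnajb4+/+ array than in any Dnajb4-/- array. As the mean of its probe sets it read 4618, 4619 and 4645 in Dnajb4+/+ and 3708, 3617 and 3683 in Dnajb4-/- livers, which differ by -0.33 ± 0.035 (SE; adjusted p = 0.00136) on the log2 scale. The size varied widely between the probe sets. The probe set 1421991_a_at read 562, 526 and 567 against 366, 335 and 375 (-0.62, adjusted p = 0.00147 over all probe sets), and 1421992_a_at read 2509, 2510 and 2555 against 1684, 1669 and 1705 (-0.58, adjusted p = 3.83e-04). A middle pair, 1423756_s_at and 1423757_x_at, differed by -0.32 and -0.34 (adjusted p = 0.00429 and 0.00476). The last pair, 1437405_a_at and 1437406_x_at, differed by only -0.068 and -0.075 and did not pass (adjusted p = 0.348 and 0.311), with 95% intervals of -0.17 to 0.033 and -0.18 to 0.028. These intervals do not meet those of the first pair, which end at -0.48 and -0.49. The call of the gene was lost when its brightest probe set, 1437405_a_at, stood for it (adjusted p = 0.267), and the parts of the transcript that the probe sets read were not analysed here.

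Igfbp1, an insulin-repressed gene of hepatocytes that also rises in fasting and amino acid shortage, read 3104, 3012 and 3046 in Dnajb4+/+ and 2637, 2601 and 2621 in Dnajb4-/- livers with its single probe set. The lowest Dnajb4+/+ array stood above the highest Dnajb4-/- array. The log2 difference was -0.22 ± 0.036 (SE; adjusted p = 0.00808), or 85.8% of the Dnajb4+/+ signal, and it was called under all 11 alternatives and with each array left out. Adjusted over probe sets in place of genes, the call (adjusted p = 0.0168) was lost in 4 of the 6 fits with an array left out, those leaving out Dnajb4+/+ replicate 1, Dnajb4+/+ replicate 3, Dnajb4-/- replicate 2 and Dnajb4-/- replicate 3 (adjusted p = 0.0542 to 0.0667). Its FOXO element is the stretch in capitals shown above.

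Igfbp5, a binding protein of stromal cells and of matrix, has 2 probe sets that disagreed. The probe set 1452114_s_at read 173, 169 and 173 in Dnajb4+/+ and 110, 109 and 122 in Dnajb4-/- livers, a log2 difference of -0.59 (95% interval -0.73 to -0.46, adjusted p = 0.00147). The probe set 1422313_a_at read 117, 120 and 114 against 120, 133 and 134, a difference of 0.13 (95% interval -0.0052 to 0.27) that did not pass (adjusted p = 0.186). Their mean read 143, 142 and 141 against 115, 121 and 128 and differed by -0.23 ± 0.049 (SE; adjusted p = 0.0236). This call was lost with the methods' t-test (adjusted p = 0.0625) and when any array other than Dnajb4-/- replicate 3 was left out (adjusted p = 0.0602 to 0.0777). When _x_at and _s_at probe sets, which can read several transcripts, were left out, the sign turned to 0.13 (adjusted p = 0.165), so that the lower value of Igfbp5 rests on 1452114_s_at.

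Igfbp3, the carrier of most circulating IGF, which in liver is made mainly by non-parenchymal cells, was the only one of the 10 genes that rose. Its probe set 1423062_at read 511, 471 and 491 in Dnajb4+/+ and 696, 658 and 650 in Dnajb4-/- livers, and 1458268_s_at read 279, 279 and 294 against 312, 329 and 338. With both, every Dnajb4-/- array was above every Dnajb4+/+ array. The log2 differences were 0.44 (adjusted p = 0.00307) and 0.20 (adjusted p = 0.0452), and that of the gene was 0.32 ± 0.038 (SE; adjusted p = 0.00201), or 125.0% of the Dnajb4+/+ signal. The call of 1458268_s_at was lost with any of the 6 arrays left out (adjusted p = 0.0574 to 0.133), whereas 1423062_at and the gene as a whole were called each time. The gene was also called under all 11 alternatives. With arrays centred on their median, the methods' t-test and the replicate block, 1458268_s_at lost its call (adjusted p = 0.0652, 0.0638 and 0.0921). Igfbp3 and Igfbp1 are next to each other in RefSeq, on opposite strands with their 3' ends facing, and differed in opposite directions. Igfbp2 and Igfbp5 form the like pair on another chromosome, where both genes were lower, the latter by 1 of its 2 probe sets.

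**Figure D2:**
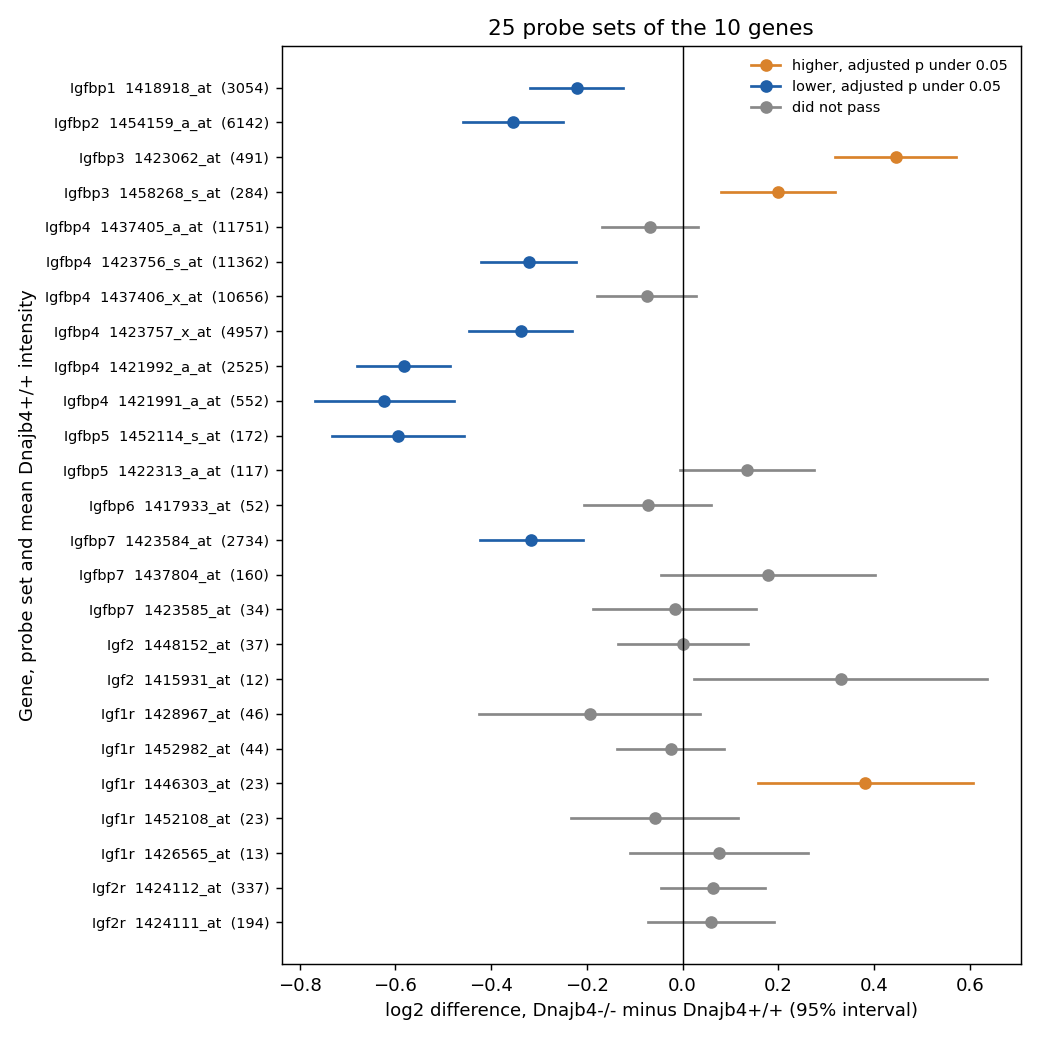
Log2 difference with its 95% interval (x axis) for each of the 25 probe sets, ordered by gene and by mean Dnajb4+/+ intensity, which stands in parentheses (y axis). The 6 probe sets of Igfbp4 run from -0.62 to -0.068, the 2 of Igfbp5 lie on opposite sides of 0, and of the 3 of Igfbp7 the brightest alone is lower.

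Igfbp7, which binds IGF weakly and is made by endothelial and stromal cells, did not pass as the mean of its 3 probe sets (245, 255 and 240 against 243, 239 and 232; -0.051, 95% interval -0.15 to 0.050, adjusted p = 0.476). Its brightest probe set, 1423584_at, read 2698, 2695 and 2809 in Dnajb4+/+ and 2166, 2162 and 2259 in Dnajb4-/- livers and was lower (-0.32, adjusted p = 0.00632). The other 2 did not pass, with 1437804_at at 143 to 170 against 171 to 201 and 1423585_at at 32.4 to 36.4 against 32.0 to 36.9. With the brightest probe set for each gene, or with linear means of probe sets, Igfbp7 was called lower (-0.32 and -0.28, adjusted p = 0.00365 and 0.00289). Igfbp6, which prefers IGF-2, read 54.4, 50.7 and 50.8 in Dnajb4+/+ and 49.9, 47.0 and 51.5 in Dnajb4-/- livers, with overlapping groups (-0.073, 95% interval -0.19 to 0.050, adjusted p = 0.404).

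The ligand gene Igf2 read 20.5, 20.3 and 21.3 in Dnajb4+/+ and 22.3, 21.7 and 25.8 in Dnajb4-/- livers as the mean of 2 probe sets, below the array medians. The Dnajb4-/- arrays were all above, yet the difference of 0.17 (95% interval 0.0021 to 0.33) did not pass (adjusted p = 0.165). It came from 1415931_at, at 11.5 to 12.0 against 13.1 to 18.3, where Dnajb4-/- replicate 3 held the highest value. The probe set 1448152_at differed by 0.0014 (adjusted p = 0.991).

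Igf1r, the signaling receptor, was also below the array medians, at 27.6, 26.1 and 26.1 in Dnajb4+/+ and 26.5, 27.1 and 28.2 in Dnajb4-/- livers over 5 probe sets (0.036, 95% interval -0.068 to 0.14, adjusted p = 0.641). Of these, 1446303_at was higher, at 23.6, 24.9 and 21.4 against 27.1, 30.3 and 33.8 (0.38, adjusted p = 0.0424). This call was lost with the methods' t-test (adjusted p = 0.133) and with 5 of the 6 arrays left out, all but Dnajb4-/- replicate 1 (adjusted p = 0.0592 to 0.121). The other 4 did not pass and differed by -0.19 to 0.076. Igf2r, the clearance receptor, read 260, 247 and 259 against 268, 262 and 270. Its Dnajb4-/- arrays were all above the others, but the difference of 0.062 (95% interval -0.032 to 0.16) did not pass (adjusted p = 0.351), nor did either of its 2 probe sets.
Across all 25 probe sets of the 10 genes, 8 were lower and 3 higher, and 14 did not pass, beside 13.5% of all probe sets that passed. The groups did not overlap for 15 of them, beside 35.1% of all. The 8 lower probe sets were those of Igfbp1 and Igfbp2, 4 of Igfbp4 and 1 each of Igfbp5 and Igfbp7. The 3 higher probe sets were both of Igfbp3 and 1 of Igf1r.

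Other genes of the axis were counted by list. Igf1 (5387 ± 33.3 against 5552 ± 40.5), Igfals (1028 ± 32.0 against 1075 ± 31.7) and the growth hormone receptor gene Ghr (2324 ± 51.0 against 2301 ± 18.8; SD, n = 3) did not pass, at 0.043, 0.065 and -0.014. Of 7 lists on the rest of the axis, which hold 43 measured genes, 4 genes rose, 4 fell and 35 did not pass, a share of 18.6% called beside 14.7% of all genes. Their median difference was -0.0027.
None of 5 genes for proteases of IGF binding proteins or their inhibitors passed. The largest values were those of the proteases Pappa2 (0.24, adjusted p = 0.0724) and Pappa (0.16, adjusted p = 0.150), both with mean intensities between 9.26 and 11.3. Among 8 receptor relatives and adaptors, 1 fell, the cation-dependent mannose 6-phosphate receptor M6pr, from 682 ± 18.5 to 584 ± 17.4 (-0.22, adjusted p = 0.0151), and the insulin receptor Insr (-0.033), Irs1 (0.060) and Irs2 (-0.063) did not pass. Of 4 measured genes for Igf2 mRNA binding or imprinted neighbours, none passed, with Ins2 at 0.22 (adjusted p = 0.149) and Igf2bp3 at 0.089 (adjusted p = 0.330). Of 7 relatives of the binding proteins, 1 rose, the matrix protein gene Ccn2, from 295 ± 11.0 to 395 ± 19.3 (0.42, adjusted p = 0.00253).
Genes that share known inputs with Igfbp1 moved in both directions. Of 8 FOXO1 and insulin-repressed genes, the glucose-6-phosphatase gene G6pc rose from 3882 ± 49.7 to 4855 ± 82.8 (0.32, adjusted p = 0.00180), the coactivator Ppargc1a fell by 0.74 on the log2 scale, and 6 did not pass, among them Foxo1 (-0.063). Of 9 genes of the amino acid response through ATF4, 2 rose, the asparagine synthetase Asns (0.63, adjusted p = 5.18e-04) and the glutathione-degrading Chac1 (0.54, adjusted p = 6.47e-04), 2 fell, the stress factor Ddit3 (-0.45, adjusted p = 0.00114) and the pseudokinase Trib3 (-0.41, adjusted p = 0.00335), and 5 did not pass.

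**Figure D3:**
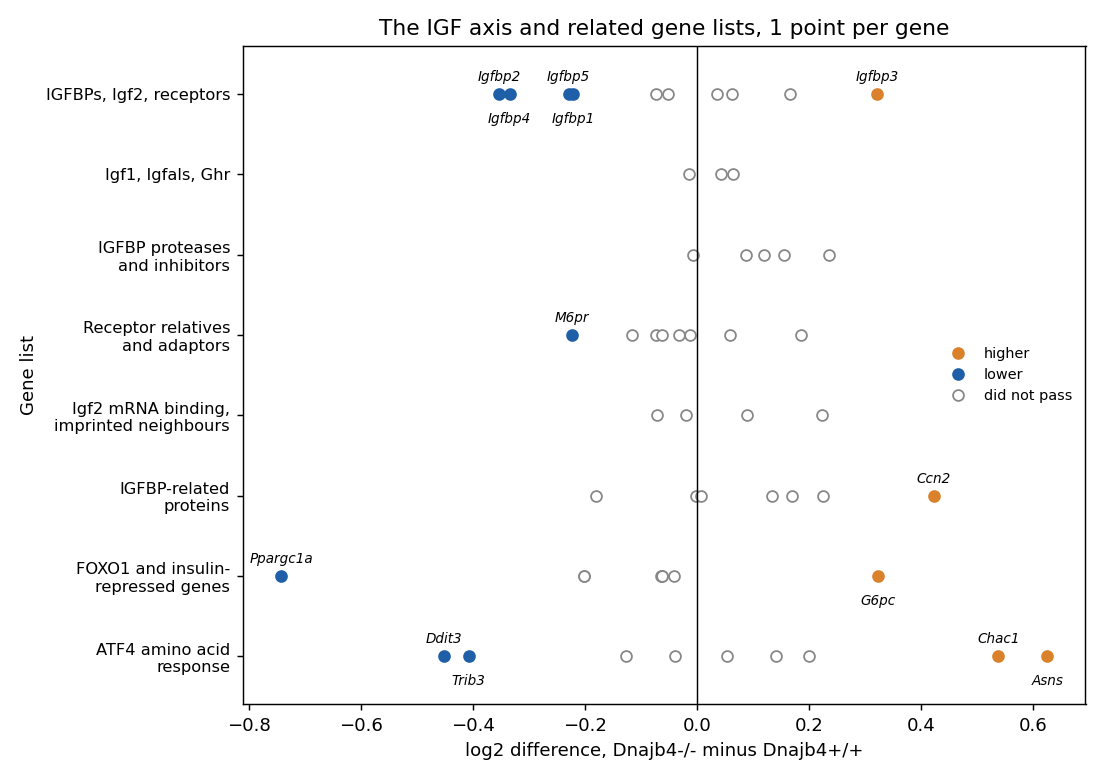
Log2 difference (x axis) of each measured gene of the 10 genes and of 7 lists on the IGF axis (y axis), 1 point per gene, filled and named where the adjusted p was under 0.05. Igfbp1, Igfbp2, Igfbp4 and Igfbp5 lie left of 0 and Igfbp3 right of it, Igf1, Igfals and Ghr lie near 0, and called genes of the 2 lowest lists lie on both sides.

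Hepatocyte markers were bright, as fits the labelled tissue, with albumin (Alb) at 29388 ± 207 in Dnajb4+/+ and 28776 ± 77.4 in Dnajb4-/- livers. Of 8 measured hepatocyte markers, 6 did not pass. Tat fell from 7969 to 5962 (-0.42, adjusted p = 9.95e-04), and the transcription factor gene Hnf4a rose (0.17, adjusted p = 0.0311). The summed intensity of the 8 was 138574 to 139305 in Dnajb4+/+ and 134730 to 135433 in Dnajb4-/- livers. Igfbp3, Igfbp5 and Igfbp7 are known from non-parenchymal cells. Of 11 markers of Kupffer cells and macrophages, 10 fell, and their summed intensity was 6267 to 6608 in Dnajb4+/+ and 4830 to 5064 in Dnajb4-/- livers. Of 12 endothelial markers, 5 fell (2649 to 2779 against 2393 to 2531), and of 15 stellate cell and fibroblast markers, 3 fell (2415 to 2462 against 2178 to 2240). Of 14 skeletal muscle markers, 11 fell (887 to 943 against 457 to 479). Of 10 lymphocyte and 6 mesothelial markers 1 each fell, and of 6 cholangiocyte markers 1 rose, the transcription factor gene Sox9 (0.42, adjusted p = 0.00481). Beside these counts, 9.57% of all genes fell and 5.09% rose. Single calls in such short lists are not read as results on those cells. No marker of these lists was at 0, which does not show that a cell type was present, as the lowest value on any array was 3.90. The part of cell makeup in these differences was not tested, and in bulk liver fewer cells of a type and less RNA per cell cannot be told apart.

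**Figure D4:**
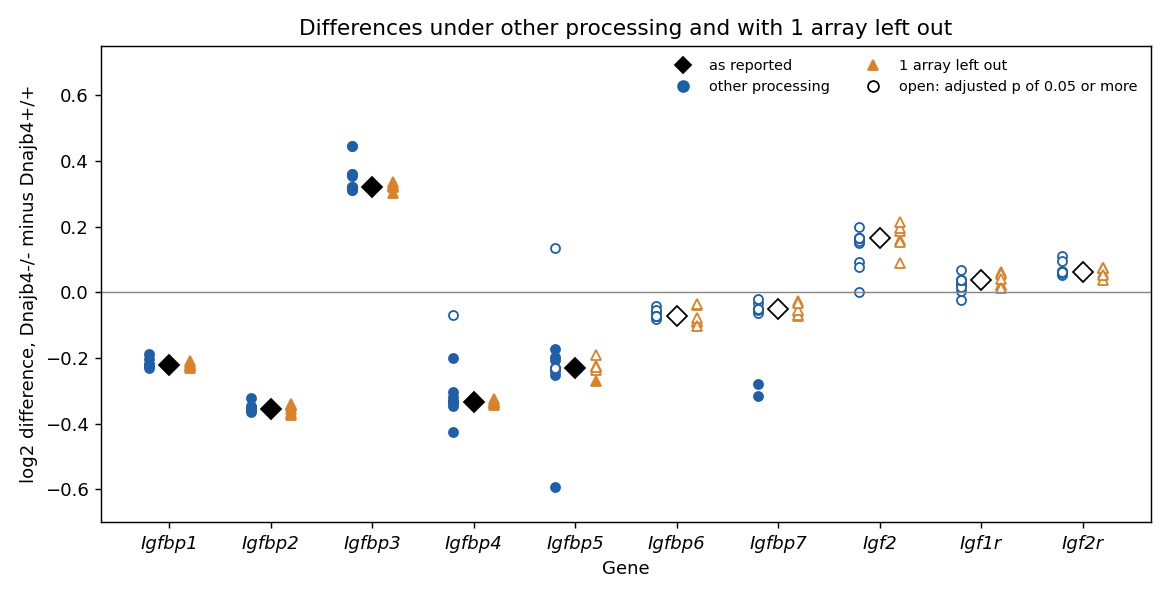
Log2 difference of each of the 10 genes (x axis) as reported (diamonds), under up to 11 processing alternatives (circles) and with 1 of 6 arrays left out (triangles), filled where the adjusted p was under 0.05. Igfbp1, Igfbp2 and Igfbp3 stay filled throughout, Igfbp4 opens once at -0.068, Igfbp5 ranges from -0.59 to 0.13, and Igfbp7 is filled at -0.32 and -0.28 alone.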

How the data were processed

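Liver RNA of 3 Dnajb4+/+ and 3 Dnajb4-/- mice was hybridised to Affymetrix Mouse Genome 430 2.0 arrays. The deposited intensity values are linear and were made by the authors in GeneSpring with GCRMA, which uses probe GC content for its background and normalizes between arrays, and global median centring. Software versions are not given in the sources used here. Precision is limited by the small number of arrays. Of 45101 probe sets, 34945 carry a single symbol. Their log2 intensities were averaged within each of 18193 genes, since the methods also averaged probe sets. No dim genes were removed. The genotypes were tested with limma 3.58.1 under R 4.3.3 (lmFit, then eBayes), and the scripts were tested on simulated data. Older gene symbols were matched through RefSeq synonyms. Named are the 10 genes, Dnajb4, Igf1, Igfals and Ghr, up to 4 called genes of each other list by size of difference, or 2 where none was called, and the 3 genes most correlated with each of the 2 called members that differed most. Insr, Irs1, Irs2, Foxo1, Sox9, Hnf4a, Tat, the neighbours and the check genes were named after their values were seen. The members and lists were chosen with earlier results of these data known. There were 11 alternatives, which were quantile normalization, both other centrings, a filter on dim genes, the brightest probe set or a linear mean for each gene, leaving out _x_at and _s_at probe sets, adding 16 to intensities, eBayes with trend and robust options, the methods' t-test and a replicate block. Each array was also left out in turn. Plots were made with python 3.11.15 and matplotlib 3.10.9.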

Additional observations from a re-analysis of the deposited data

How the results depend on the processing

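Igfbp1, Igfbp2 and Igfbp3 kept their direction and their call under all 11 alternatives and with each of the 6 arrays left out, at -0.23 to -0.19, -0.37 to -0.32 and 0.30 to 0.44. The changed calls of Igfbp4, Igfbp5 and Igfbp7 stand with their values in the text. The lower genes numbered 3 to 4 with an array left out. Signs turned for Igfbp5 without _x_at and _s_at probe sets (0.13) and for Igf1r, which was not called, with the brightest probe set (-0.025). The number of higher probe sets went from 3 to 1 with the methods' t-test and with the replicate block. With an array left out it was 1 to 2. In these fits 1446303_at of Igf1r, 1458268_s_at of Igfbp3 or both lost their calls. The number was 2 with arrays centred on their median, where 1458268_s_at lost its call, and with the filter on dim probe sets. With the block, Igfbp1 also lost its call over probe sets (adjusted p = 0.0716). At the methods' threshold without adjustment, the methods' t-test called 5 of the 10 genes, beside 27.0% of all genes. Called genes on the rest of the axis went from 8 to 13 with the brightest probe set of each gene, while the share called over all genes went from 14.7% to 17.8%. Over all genes, 2667 passed, 1529 with the replicate block and 1552 to 2009 with an array left out. Same-numbered arrays deviated together at r of -0.021, -0.14 and 0.0091, beside -0.10 to 0.12 for arrays of unlike number. These values show no pairing by number, but a pairing that touches few genes was not tested. With the block, Igfbp5 lost its call (adjusted p = 0.0676). Igf2 and Igf1r, below the array medians, were left out by the filter on dim genes. The cause of these changes was not tested.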

Other observations

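By Pearson's r of log2 values over the 6 arrays, the genes most like Igfbp2 were Zfc3h1 (0.9994), L3hypdh (0.9988) and Ascc1 (0.9985), and those most like Igfbp4 were Srsf5 (0.9996), the female-high P450 gene Cyp17a1 (0.9995) and Acot4 (0.9991). These values share the split by genotype, and all 6 genes were lower in Dnajb4-/- livers, by 0.16 to 2.11 on the log2 scale. A probe set that carries the symbols of both Airn, the antisense RNA at the Igf2r locus, and Igf2r read 13.7, 13.7 and 12.8 in Dnajb4+/+ and 12.3, 13.0 and 13.1 in Dnajb4-/- livers and was not counted among the 25. Of the other genes within 50000 bases of the Igfbp1 and Igfbp3 pair, Adcy1 (0.11, adjusted p = 0.300) and Ccdc201 (-0.051, adjusted p = 0.684) were measured and did not pass.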
